A study of Mus musculus with 2 samples.

Results

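The genes of the proteasome subunits were followed across the brain cell types of the mouse dentate gyrus, the hippocampal field in which granule neurons are added in adult life. All gene columns named Psma, Psmb, Psmc, Psmd or Psme with a number were taken, apart from Psmb8 and Psmb9, which gave 40 of 17592 genes. The choice rests on names and uses no measured value, but it was made with earlier results of these data known. The series holds 1 library of C57BL/6 mice at 16 months, called old here, and 1 library of C57BL/6 mice at 3 months, called young. Neither the number of animals nor their sex is given in the sources used here. In both, the dentate gyrus was dissected, dissociated with papain and sorted for cells that exclude propidium iodide, and messenger RNA was counted at its 3' end by unique molecular identifiers (UMIs, 1 per captured molecule) with 10x Genomics v3 chemistry.

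The proteasome is the protease that degrades proteins tagged with ubiquitin. Its core particle is a barrel of alpha rings, encoded by Psma genes, around beta rings, encoded by Psmb genes, of which Psmb5, Psmb6 and Psmb7 carry the active sites. The regulatory particle caps the barrel: its base unfolds substrates with the Psmc ATPases, and its lid, made of Psmd proteins, removes the ubiquitin chain. Psmd5, Psmd9 and Psmd10 are chaperones that help to assemble the base and leave it afterwards. The Psme genes encode other caps. Psme1 and Psme2 form the PA28 alpha-beta activator and Psmb10 takes the place of Psmb7 in the immunoproteasome, and all 3 are known as interferon-induced genes of antigen presentation. Psme3 encodes the nuclear PA28 gamma, Psme4 the PA200 activator, and Psma8 an alpha subunit known from the testis.

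Of the 40 genes, 14 were core subunits (7 alpha and 7 beta), 17 were regulatory subunits (6 ATPases, 3 other base subunits and 8 of the lid), 3 were base chaperones, 4 were activators, and Psmb10 and Psma8 were given apart. The old library held 1430 cells with 7451506 UMIs and the young library 2463 cells with 16217559 UMIs. Of the old barcodes, 1401 (98.0%) were also in the young library. Among the cells of brain classes, 1113 barcodes had the same class in both, out of 1141 old and 1148 young cells, so both tables show largely the same cells and say nothing on age. A further 289 old and 1315 young cells lay in clusters with under 1% mitochondrial UMIs and were kept apart as low-mitochondrial cells. Classes are called "-like" after their markers: in the young library, 358 microglia-like, 304 astrocyte-like, 129 endothelial-like, 79 mature oligodendrocyte-like, 70 pericyte-like, 58 neuroblast-like (neuroblasts or immature granule neurons) and 48 oligodendrocyte precursor-like cells. Between 9 and 12 markers passed in each of these classes. Junb, Jun, Atf3, Fos and Egr1, which are immediate early genes, were 5 of the 10 genes that led the microglia-like cluster. Unless stated otherwise, values are from the young rows, levels are summed UMIs per 10,000 UMIs of a class, and 95% intervals hold counting error alone. With 1 library per age, no test was possible between classes or ages, and the classes were made from the same cells that are compared, so the differences below are descriptions.

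Among the 7 larger classes, summed proteasome messenger RNA was highest in neuroblast-like and endothelial-like cells and lowest in microglia-like cells. The 40 genes summed to 64.6 UMIs per 10,000 (62.3 to 67.0) in neuroblast-like cells, 60.7 (58.5 to 63.0) in endothelial-like cells and 59.2 (56.7 to 61.8) in oligodendrocyte precursor-like cells. The sums were 49.5 (46.7 to 52.4) in pericyte-like cells and 47.1 (45.6 to 48.8) in mature oligodendrocyte-like cells. Astrocyte-like cells had 40.5 (39.2 to 41.8) and microglia-like cells 36.2 (35.5 to 36.9). In this order, the intervals of neuroblast-like and endothelial-like, endothelial-like and precursor-like, and pericyte-like and mature oligodendrocyte-like cells overlapped, and the other neighbours did not. The small classes had 56.2 (51.5 to 61.2) in 14 smooth muscle-like cells, 35.8 in 10 perivascular macrophage-like cells, 22.6 in 5 B cell-like cells and 40.9 in 73 unnamed cells. The order of the 7 larger classes was the same in the old rows, with 62.9 in neuroblast-like, 59.6 in endothelial-like, 58.9 in precursor-like, 51.0 in pericyte-like, 47.3 in mature oligodendrocyte-like, 40.2 in astrocyte-like and 35.7 in microglia-like cells. The astrocyte-like class held 2 clusters that differed: 24 cells led by Mt3, Aldoc, Mt1 and Hopx had 65.1 (59.1 to 71.5), while the 280 other cells had 38.5 (37.2 to 39.8).

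The classes also differed in the level of most other genes, which sets the scale for these differences. Ratios set a class against the other brain-class cells, pooled by UMIs. Microglia-like cells held 2872157 of the 6456419 UMIs of young brain-class cells. In the ratios of every other class they thus weighed most, with the lowest sum of the larger classes. Ratios without microglia-like cells in the reference were not computed. Over the 8169 genes with at least 100 UMIs in young brain-class cells, the median log2 ratio of a class over the other brain-class cells was -0.38 in microglia-like, -0.30 in mature oligodendrocyte-like, -0.11 in endothelial-like, -0.10 in pericyte-like, -0.04 in astrocyte-like, 0.03 in neuroblast-like and 0.16 in precursor-like cells. Of the 40 proteasome genes, 39 passed that minimum. Relative to the median of all genes, the summed proteasome level was 0.58 higher (log2) in neuroblast-like, 0.62 in endothelial-like, 0.41 in mature oligodendrocyte-like, 0.30 in precursor-like and 0.28 in pericyte-like cells, and lay at -0.10 in astrocyte-like and -0.09 in microglia-like cells. The low sum of the 40 genes in microglia-like cells thus lay close to the median of all their genes. On the same scale their core sum lay lower, at -0.25, their regulatory sum at -0.07 and the median of the 39 members at -0.14. Depth per cell moved with these classes: the median was 8473.5 UMIs in neuroblast-like, 7993 in microglia-like, 9609 in mature oligodendrocyte-like, 3237 in endothelial-like and 1912 in astrocyte-like cells. Thinning to 1000 UMIs left out cells below that depth, among them 41 of 304 astrocyte-like cells, and gave the kept cells equal weight. With cells so thinned, the log2 ratio to the other brain-class cells was 0.54 in neuroblast-like cells (0.61 without thinning) and -0.38 in microglia-like cells (-0.47 without thinning). In astrocyte-like cells it was -0.37 (-0.14 without thinning). As a mean over cells it was -0.35 in both microglia-like and astrocyte-like cells. By either measure the ratios of these classes were nearly equal. Each ratio has its own reference, so these measures do not place microglia-like cells below astrocyte-like cells.

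**Figure D1:**
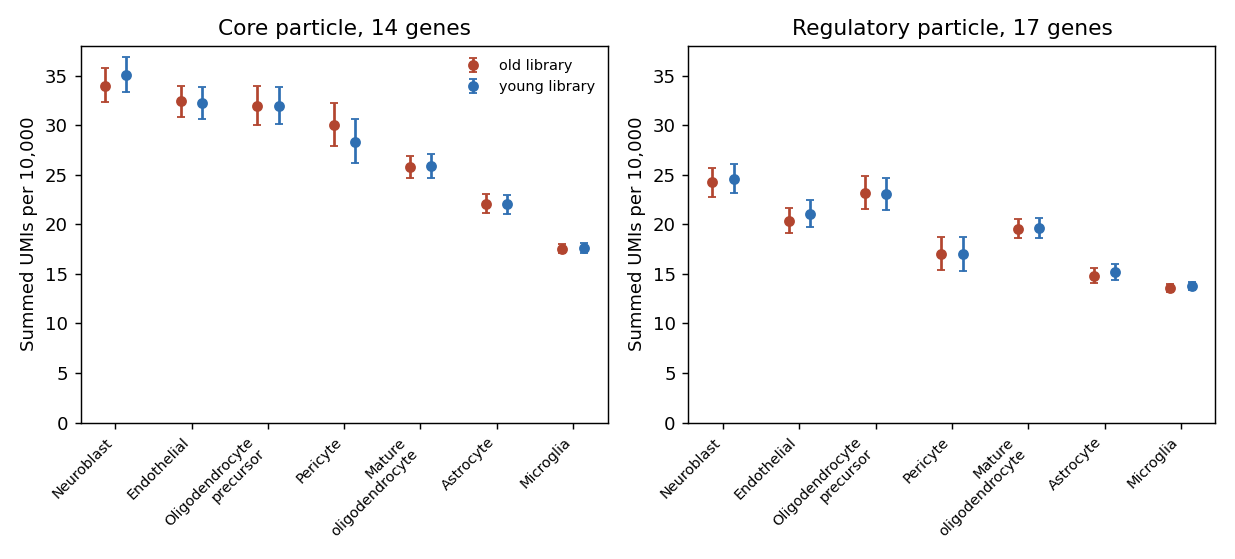
Summed UMIs per 10,000 of the core particle (left) and of the regulatory particle (right) in 7 cell classes, in the old and the young library, with exact 95% Poisson intervals. Neuroblast-like cells stood highest in both panels and microglia-like cells lowest, and both libraries, which hold largely the same cells, gave the same picture.

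Most members differed little between classes. Among genes with at least 500 UMIs, the SD of the log2 level over the 6 largest named classes, which leave out precursor-like cells, had a median of 0.38 for 30 proteasome genes, against 0.78 for all 2168 genes. The median was 0.40 for the 14 core genes and 0.33 for 13 regulatory genes. Psmd3, a scaffold subunit of the lid with 410 UMIs, had an SD of 0.14 and lay between 0.604 UMIs per 10,000 in mature oligodendrocyte-like and 0.807 in endothelial-like cells. The widest SDs among the 39 members were 1.43 for Psme1, 0.98 for Psmb10, 0.84 for the lid gene Psmd14 (414 UMIs) and 0.80 for Psme2. Of all 2168 genes, 28.9% had a larger SD than Psme1, 40.3% a larger SD than Psmb10 and 48.2% a larger SD than Psme2. No proteasome gene was among the 2000 variable genes from which the clusters were made.

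Core and regulatory genes moved largely together. The core sum was 35.1 in neuroblast-like, 32.2 in endothelial-like, 32.0 in precursor-like, 28.3 in pericyte-like, 25.9 in mature oligodendrocyte-like, 22.0 in astrocyte-like and 17.6 in microglia-like cells. The regulatory sum was 24.6 in neuroblast-like, 23.1 in precursor-like, 21.0 in endothelial-like, 19.6 in mature oligodendrocyte-like, 17.0 in pericyte-like, 15.2 in astrocyte-like and 13.8 in microglia-like cells. Pairs of neighbours changed places between the sums, pericyte-like with mature oligodendrocyte-like and endothelial-like with precursor-like cells, with overlapping intervals in each pair. The ratio of core over regulatory UMIs was 1.38 (1.35 to 1.42) over all young brain-class cells. Since 3' counts do not scale with transcript length, this is a ratio of captured molecules, not of protein. The ratio was 1.67 (1.47 to 1.90) in pericyte-like, 1.53 (1.41 to 1.66) in endothelial-like, 1.45 (1.35 to 1.56) in astrocyte-like, 1.43 (1.32 to 1.54) in neuroblast-like, 1.39 (1.27 to 1.52) in precursor-like, 1.32 (1.23 to 1.42) in mature oligodendrocyte-like and 1.28 (1.23 to 1.33) in microglia-like cells. Against the other brain-class cells, the log2 of the ratio was 0.28 (0.10 to 0.47) in pericyte-like, 0.16 (0.04 to 0.29) in endothelial-like and -0.18 (-0.25 to -0.10) in microglia-like cells, and the intervals of astrocyte-like, mature oligodendrocyte-like and neuroblast-like cells included 0. Of these 7 classes, the same ones had the highest and the lowest ratio in the old rows, with 1.77 for pericyte-like cells and 1.29 for microglia-like cells. Outside these classes the young ratio was 2.14 (1.47 to 3.15) in perivascular macrophage-like cells, on 92 core and 43 regulatory UMIs. It was 1.69 (0.816 to 3.66) in B cell-like and 1.48 (1.23 to 1.78) in smooth muscle-like cells.

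**Figure D2:**
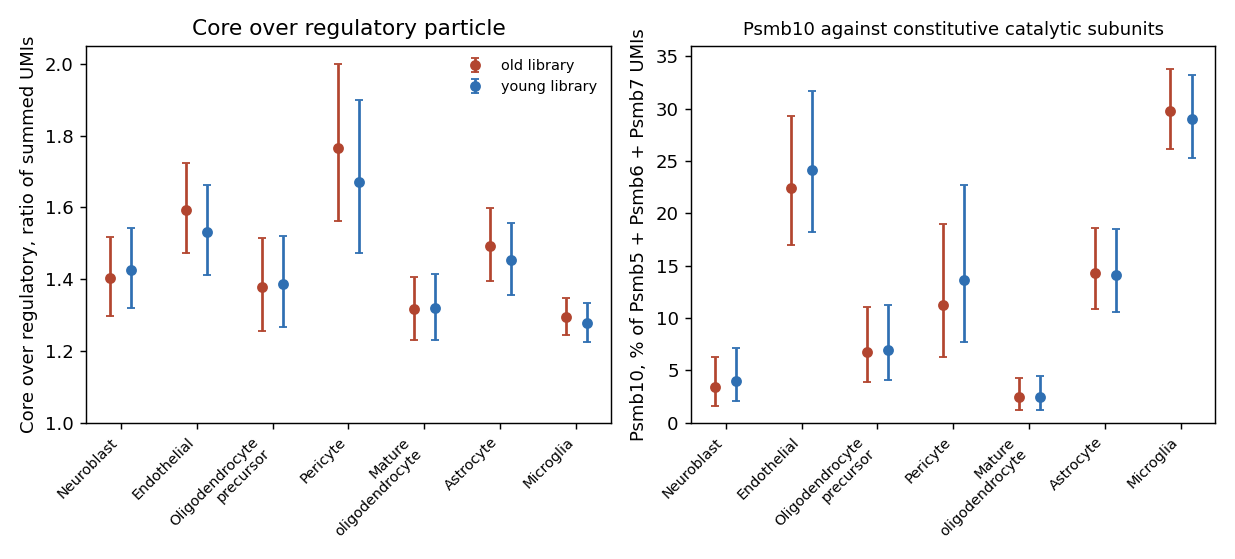
Left, ratio of summed core to summed regulatory UMIs by class; right, Psmb10 UMIs in percent of the UMIs of Psmb5, Psmb6 and Psmb7; points are the old and the young library and bars exact 95% intervals. Of the 7 classes shown, the ratio was highest in pericyte-like cells, and the Psmb10 share was 29.0% in microglia-like and 2.47% in mature oligodendrocyte-like cells of the young library.

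Single members were counted as apart when the level in a class was at least 1.5-fold that in the other brain-class cells, or the reverse, after adding 0.1 UMIs per 10,000 to both. In neuroblast-like cells 19 of 39 members were higher than in the other brain-class cells and 1 was lower, where 24.9% of all 8169 genes were higher and 30.6% lower. In endothelial-like cells 8 were higher and 0 lower, where 16.0% and 30.3% of all genes were. In precursor-like cells 11 were higher and 2 lower, where 27.2% and 22.3% of all genes were. The 11 higher members were thus a share close to that of all genes. Mature oligodendrocyte-like cells had 2 higher and 6 lower, where 15.0% and 38.4% of all genes were, and pericyte-like cells 3 higher and 2 lower, where 17.0% and 30.8% were. Astrocyte-like cells had 1 higher and 4 lower, where 23.6% and 28.2% of all genes were. Microglia-like cells had 0 higher and 15 lower, where 16.4% and 40.0% of all genes were, so that the 15 lower members were a share close to that of all genes. Relative to the median of all genes, 0 members were lower and 2 higher in microglia-like cells (24.9% of all genes higher, 26.3% lower), 14 were higher and 0 lower in endothelial-like cells (19.9% and 27.2%), 12 higher and 3 lower in mature oligodendrocyte-like cells (23.9% and 29.6%) and 19 higher and 1 lower in neuroblast-like cells (23.6% and 31.1%). On the same scale 6 were higher and 2 lower in pericyte-like (21.0% and 27.6%), 1 higher and 4 lower in astrocyte-like (24.9% and 27.2%) and 4 higher and 2 lower in precursor-like cells (19.9% and 26.1%). In the old rows only Psme1 and Psme2 were lower in astrocyte-like cells, 2 members where 27.4% of all genes were lower.

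The median log2 ratio of the 39 members was 0.58 in neuroblast-like cells, where that of all genes was 0.03, and 0.36 in endothelial-like cells, where that of all genes was -0.11. It was 0.41 in precursor-like (all genes 0.16), 0.19 in mature oligodendrocyte-like (-0.30), 0.08 in pericyte-like (-0.10), -0.06 in astrocyte-like (-0.04) and -0.52 in microglia-like cells (-0.38). Psmb1, Psmc2, Psmc3, Psmd3 and Psmd12 were 1.5-fold apart in none of the 7 classes on this scale in the young rows. Relative to the median of all genes, Psmb1 was higher in endothelial-like and mature oligodendrocyte-like cells and Psmc2 and Psmc3 in mature oligodendrocyte-like cells, and in the old rows Psmb1 passed in endothelial-like cells without centring too.

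**Figure D3:**
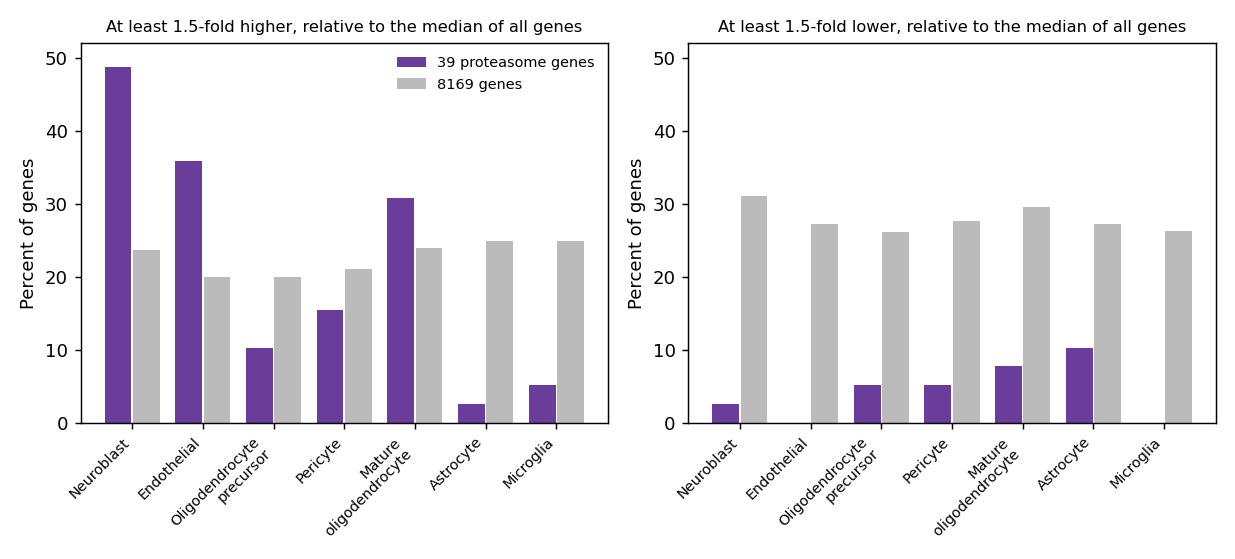
Percent of the 39 proteasome genes and of all 8169 genes at least 1.5-fold higher (left) or lower (right) in a class than in the other brain-class cells of the young library, relative to the median ratio of all genes. The proteasome bars stand above the bars of all genes for higher genes in neuroblast-like, endothelial-like and mature oligodendrocyte-like cells, and below them for lower genes in all 7 classes.

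In neuroblast-like cells the higher members came from every layer of the particle. They were 4 of 7 alpha genes (Psma1, Psma3, Psma4 and Psma5), 4 of 7 beta genes (Psmb2, Psmb4, Psmb6 and Psmb7), 1 of 6 ATPases, 2 of 3 other base genes, 5 of 8 lid genes, 2 of 3 chaperones and 1 of 4 activators. The largest ratio belonged to Psmd14, the lid metalloprotease that cuts the ubiquitin chain from the substrate, encoded on the plus strand of chromosome 2 from 61711694 to 61800376 (GRCm38, GENCODE M21). Psmd14 had 1.84 UMIs per 10,000 (82 UMIs) in neuroblast-like cells, against 0.552 in the other brain-class cells, a log2 ratio of 1.57 (ratio 3.33, 2.58 to 4.25). The next classes were precursor-like cells with 0.907, astrocyte-like cells with 0.641 and endothelial-like cells with 0.545 UMIs of Psmd14 per 10,000. Mature oligodendrocyte-like cells had 0.534, microglia-like cells 0.522 and pericyte-like cells 0.214 on 5 UMIs. Neuroblast-like cells thus stood above the other classes listed for this gene, and the old rows gave 1.76 there and 0.207 in pericyte-like cells. Psmd9, a base chaperone, had 0.829 in neuroblast-like cells, against 0.356 in the others (log2 ratio 1.03), and the ATPase gene Psmc6 had 2.40, against 1.13 (1.02). The lid genes Psmd6, Psmd7, Psmd11 and Psmd13 had log2 ratios of 0.66, 0.69, 0.82 and 0.83, the base scaffolds Psmd1 and Psmd2 0.73 and 0.70, and the chaperone Psmd5 0.67. The 4 alpha genes lay between 0.77 and 0.84 and the 4 beta genes between 0.65 and 0.84. Psme4 had 0.583 in neuroblast-like cells, against 0.314 in the others (0.72). The lowest members were Psmb10, described below, Psmc2 with -0.16 and Psme2 with -0.16.

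In endothelial-like cells 34 of 39 members had a log2 ratio above 0, where the median of all genes was -0.11. Neuroblast-like cells had 35 and precursor-like cells 34 such members, and the share of all genes above 0 was not computed. The members past 1.5-fold in endothelial-like cells were alpha and base genes, the PA28 pair and Psmb10. Psma6, an alpha-ring subunit, had 2.86 UMIs per 10,000 in endothelial-like cells, against 1.20 in the other brain-class cells (log2 ratio 1.18), and between 0.933 in microglia-like and 1.84 in pericyte-like cells in the other large classes. Psma7, another alpha-ring subunit, had 4.16 in endothelial-like cells, against 1.95 in the others (1.06). Psma7 had 3.00 in neuroblast-like, 2.95 in pericyte-like, 2.42 in mature oligodendrocyte-like, 1.61 in microglia-like and 1.5 in astrocyte-like cells. These were 2 of 7 alpha genes, while 0 of 7 beta genes and 0 of 8 lid genes reached 1.5-fold. Relative to the median of all genes, 4 alpha genes, 2 beta genes and 1 lid gene did. The base genes Psmd1, Psmd2 and Psmc4 had log2 ratios of 0.92, 0.59 and 0.59. The lowest members of endothelial-like cells were Psme4 with 0.240, against 0.340 (-0.37), Psmd14 with -0.21 and Psmd10 with -0.20, all 3 with intervals of their ratio that included 1.

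In pericyte-like cells Psmb3, a beta-ring subunit, had 2.74 UMIs per 10,000, against 1.52 in the other brain-class cells (log2 ratio 0.81). The ATPase gene Psmc4 had 1.24 on 29 UMIs, against 0.747 (0.66). In the old rows Psmc4 had 0.992 on 24 UMIs in these cells and was not 1.5-fold higher. The lowest members of pericyte-like cells were Psmd14 (-1.27), Psme1 (-1.01) and the ATPase gene Psmc5 (-0.52). In mature oligodendrocyte-like cells the ATPase gene Psmc1 had 1.12, against 0.540 (0.94), and Psmd4, the base receptor for ubiquitin chains, had 1.77, against 1.15 (0.59). The ATPase gene Psmc3 had 1.87, against 1.26 (0.54), and the chaperone Psmd10 had 0.197, against 0.353 (-0.61). In precursor-like cells Psmd9 had 0.964, against 0.356 (1.22), the lid gene Psmd6 had 2.18, against 0.975 (1.09), and the catalytic gene Psmb5 had 3.46, against 1.60 (1.06). Counts of Psmb5 are uncertain, since 66.9% of the 31-base words in its last 500 bases recur in other genes. The other 8 members higher in precursor-like cells had log2 ratios between 0.60 (Psmc6) and 0.91 (Psma2). The members higher there, as counted above, were a share close to that of all genes.

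In astrocyte-like cells, 4 members were lower: Psme1 and Psme2, described below, the lid gene Psmd8 with 0.696 UMIs per 10,000, against 1.16 in the other brain-class cells (log2 ratio -0.67), and Psmd10 with 0.188, against 0.360 (-0.68). Psme4 was the only member at least 1.5-fold higher there, with 0.542, against 0.299 (0.69), and Psmd11 (0.28) and Psmd3 (0.18) came next. In microglia-like cells the lower members were 3 of 7 alpha, 5 of 7 beta, 2 of 6 ATPase, 2 of 3 other base, 2 of 8 lid and 1 of 3 chaperone genes. Psmd9 was the lowest, with 0.233, against 0.513 in the others (log2 ratio -0.88). The catalytic genes Psmb6 and Psmb5 had 1.33, against 2.38 (-0.79), and 1.20, against 2.11 (-0.76). The other 12, namely Psma2, Psma6, Psma7, Psmb2, Psmb3, Psmb4, Psmc1, Psmc4, Psmd1, Psmd2, Psmd7 and Psmd11, lay between -0.75 (Psmd1 and Psma6) and -0.60. The 3 highest members of microglia-like cells were Psme1 (0.49), Psmb10 (0.48) and Psmd10 (0.17). Relative to the median of all genes none of the 15 was 1.5-fold lower, and Psme1 and Psmb10 were higher, at 0.87 and 0.86. Immediate early genes moved with this class, as named above, and their part in these values was not tested.

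**Figure D4:**
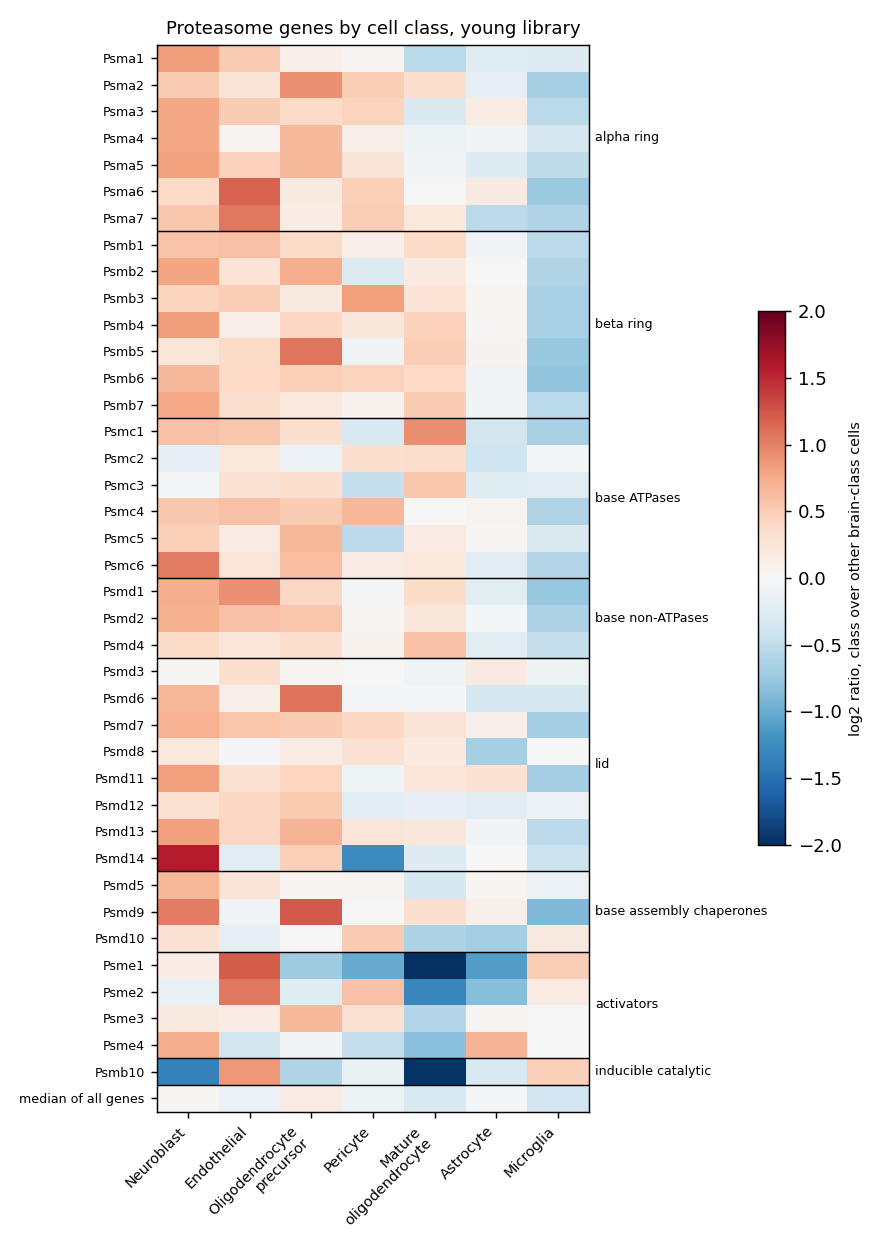
Log2 ratio of each of 39 proteasome genes in a class over the other brain-class cells of the young library, grouped by place in the particle, with the median of all 8169 genes in the last row; the colour scale ends at -2 and 2, beyond which lies Psme1 in mature oligodendrocyte-like cells (-3.17). Core and regulatory rows are mostly red in neuroblast-like and blue in microglia-like cells, while the rows of Psme1, Psme2 and Psmb10 follow another order.

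Psme1 spanned the widest range of all 39 members, 40.4-fold (16.9 to 126) between endothelial-like and mature oligodendrocyte-like cells among the 6 largest named classes. In the old rows, with 8 in place of 5 UMIs in mature oligodendrocyte-like cells, this range was 25.8-fold (12.7 to 61.0). Psme1 lies on chromosome 14 from 55578123 to 55581529, next to Psme2 on the minus strand from 55587441 to 55591113. Psme1 had 2.83 UMIs per 10,000 (2.37 to 3.37) in endothelial-like cells, 1.55 (1.41 to 1.70) in microglia-like cells and 1.41 (1.08 to 1.81) in neuroblast-like cells. It had 0.766 in precursor-like, 0.599 in pericyte-like and 0.586 in astrocyte-like cells. Mature oligodendrocyte-like cells had 0.0702 (0.0228 to 0.164), on 5 UMIs in 79 cells. Among these classes endothelial-like cells stood highest and mature oligodendrocyte-like cells lowest, while the intervals of microglia-like and neuroblast-like cells overlapped, as did those of precursor-like, pericyte-like and astrocyte-like cells. The interval of precursor-like cells (0.505 to 1.11) also reached that of neuroblast-like cells. Outside these classes, Psme1 had 2.16 (1.68 to 2.74) in 73 unnamed cells and 1.96 (0.898 to 3.73) in perivascular macrophage-like cells. Smooth muscle-like cells had 1.40 (0.745 to 2.39), and each of these intervals reached that of endothelial-like cells. The 5 B cell-like cells had 0 UMIs of Psme1. The log2 ratio over the other brain-class cells was 1.22 in endothelial-like, -0.70 in precursor-like, -1.01 in pericyte-like, -1.12 in astrocyte-like and -3.17 in mature oligodendrocyte-like cells, and 0.14 in neuroblast-like cells. The old rows gave 2.63 in endothelial-like and 0.102 in mature oligodendrocyte-like cells, where the log2 ratio was -2.87. Against the core sum of the same cells, which does not depend on the total, Psme1 had 8.80% (7.29 to 10.5) of the core UMIs in endothelial-like, 8.78% (7.95 to 9.68) in microglia-like and 0.271% (0.0880 to 0.634) in mature oligodendrocyte-like cells.

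Psme2, which pairs with Psme1, followed it only in part. Psme2 had 1.59 UMIs per 10,000 in endothelial-like, 1.20 in pericyte-like, 0.836 in microglia-like, 0.695 in neuroblast-like, 0.652 in precursor-like, 0.420 in astrocyte-like and 0.281 in mature oligodendrocyte-like cells. Its log2 ratio over the other brain-class cells was 1.05 in endothelial-like, 0.59 in pericyte-like, 0.17 in microglia-like, -0.85 in astrocyte-like and -1.30 in mature oligodendrocyte-like cells. Pericyte-like cells thus ranked second for Psme2 and stood among the low classes for Psme1. There were 164 Psme1 UMIs for 100 of Psme2 over all brain-class cells (147 to 184), 203 (130 to 323) in neuroblast-like, 185 (158 to 217) in microglia-like and 178 (133 to 241) in endothelial-like cells. In pericyte-like cells there were 50 (24.3 to 98.2) and in mature oligodendrocyte-like cells 25 (7.33 to 68.6), so that these 2 intervals lay below 100. Of the last 500 bases of Psme2 transcripts, 37.6% of 31-base words recur in Psme2b, a near copy with 0 UMIs in mature oligodendrocyte-like and 1 in pericyte-like cells, and the last bases of Psme1 overlap Emc9 on the other strand, which had 0.281 in mature oligodendrocyte-like and 0.262 in endothelial-like cells. The other activators were low everywhere. Psme3 lay between 0.126 in mature oligodendrocyte-like and 0.397 in precursor-like cells, and Psme4 between 0.154 in mature oligodendrocyte-like and 0.583 in neuroblast-like cells. All 4 activators were at least 1.5-fold lower in mature oligodendrocyte-like cells, Psme3 at -0.59 with an interval of its ratio that included 1 and Psme4 at -0.84. Relative to the median of all genes only Psme1 and Psme2 stayed past 1.5-fold there.

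Among the 7 larger classes, Psmb10, on the minus strand of chromosome 8 from 105935735 to 105938444, had the same classes at its ends. It had 1.46 UMIs per 10,000 (1.13 to 1.85) in endothelial-like, 0.975 (0.864 to 1.10) in microglia-like, 0.728 in pericyte-like, 0.652 in astrocyte-like and 0.510 in precursor-like cells. It had 0.269 (0.139 to 0.470) in neuroblast-like and 0.154 (0.0771 to 0.276) in mature oligodendrocyte-like cells. Outside these classes it had 1.35 (0.975 to 1.81) in unnamed cells and 1.31 on 6 UMIs in perivascular macrophage-like cells. B cell-like cells had 1.10 on 2 UMIs of Psmb10 and smooth muscle-like cells 0.538 on 5 UMIs. Its log2 ratio was 0.87 in endothelial-like, 0.48 in microglia-like, -1.36 in neuroblast-like and -1.95 in mature oligodendrocyte-like cells. Psmb7, the constitutive subunit that Psmb10 replaces, ran differently, with 1.77 in neuroblast-like, 1.47 in mature oligodendrocyte-like, 1.35 in endothelial-like, 1.02 in astrocyte-like and 0.825 in microglia-like cells. Per 100 UMIs of Psmb7 there were 118 (99.0 to 141) of Psmb10 in microglia-like and 108 (75.4 to 155) in endothelial-like cells, against 15.2 (7.53 to 28.0) in neuroblast-like and 10.5 (5.07 to 19.5) in mature oligodendrocyte-like cells. Neuroblast-like cells, with the highest proteasome sum of the 7 classes, thus had few UMIs of this inducible subunit. In percent of Psmb5, Psmb6 and Psmb7 together, Psmb10 stood at 29.0% (25.3 to 33.2) in microglia-like, 24.2% (18.2 to 31.7) in endothelial-like, 14.1% in astrocyte-like, 13.6% in pericyte-like, 6.98% in precursor-like, 4% in neuroblast-like and 2.47% (1.22 to 4.46) in mature oligodendrocyte-like cells. The old rows gave 29.8% in microglia-like and 2.42% in mature oligodendrocyte-like cells.

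**Figure D5:**
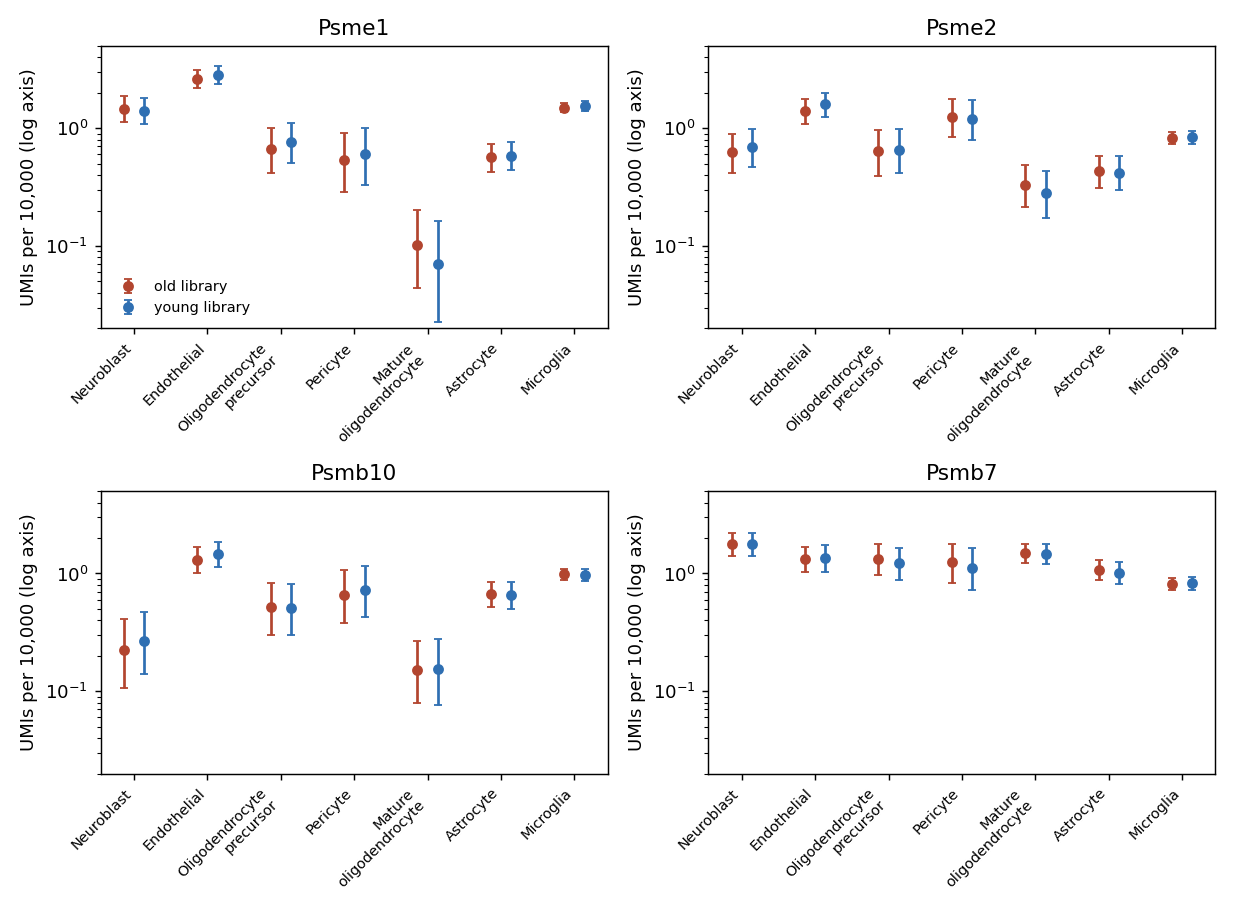
Levels of Psme1, Psme2, Psmb10 and Psmb7 in UMIs per 10,000, on a log axis, by class in the old and the young library with exact 95% Poisson intervals. Mature oligodendrocyte-like cells were lowest for Psme1, Psme2 and Psmb10, and Psmb7 varied least of the 4.

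The share of cells with a UMI moved with depth, so it was compared after thinning to 1000 UMIs, with cells below that depth left out. A Psme1 UMI was then found in 23.6% (16.4 to 32.1) of 123 endothelial-like, 12.3% (5.08 to 23.7) of 57 neuroblast-like, 10.1% (7.20 to 13.8) of 355 microglia-like and 4.56% (2.38 to 7.83) of 263 astrocyte-like cells. It was found in 1 of 77 mature oligodendrocyte-like cells (1.30%, 0.0329 to 7.02). Without thinning the shares were 55.0% in endothelial-like, 58.6% in neuroblast-like, 65.9% in microglia-like, 13.2% in astrocyte-like and 6.33% in mature oligodendrocyte-like cells. The mature oligodendrocyte-like cells had the greatest depth of these classes and the lowest share.

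Psma8 had 20 UMIs in old and 18 in young brain-class cells and stayed below the minimum. Of the 18, 13 lay in microglia-like cells and 4 in endothelial-like cells. Mature oligodendrocyte-like and neuroblast-like cells had 0, where 3 counts would have been 0.0421 and 0.0672 UMIs per 10,000.

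The sequences before the starts of some of these genes are shown because they hold, or lack, motifs of factors known to act on proteasome and interferon genes. RefSeq windows on GRCm38.p6 were at hand for 33 of the 40 genes, and the 250 bases before the start were searched on both strands, with no motif overlapping another in the sequences below. The bases printed lie before the annotated gene of GENCODE M21. Capitals mark CCAAT, known as a site of NF-Y, or TGACNNNGC, the core of the antioxidant response element that Nfe2l1 and Nfe2l2 bind.
Psme2, chr14:55591114-55591351, minus strand: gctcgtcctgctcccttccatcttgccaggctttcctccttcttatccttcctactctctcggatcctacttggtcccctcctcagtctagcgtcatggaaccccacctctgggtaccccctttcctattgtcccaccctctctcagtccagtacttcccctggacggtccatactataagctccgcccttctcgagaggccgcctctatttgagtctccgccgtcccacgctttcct
Psmb10, chr8:105938445-105938642, minus strand: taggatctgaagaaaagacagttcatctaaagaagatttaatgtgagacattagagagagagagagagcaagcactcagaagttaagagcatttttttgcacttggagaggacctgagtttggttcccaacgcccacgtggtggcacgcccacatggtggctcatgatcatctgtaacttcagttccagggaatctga
Psma6, chr12:55383972-55384221, plus strand: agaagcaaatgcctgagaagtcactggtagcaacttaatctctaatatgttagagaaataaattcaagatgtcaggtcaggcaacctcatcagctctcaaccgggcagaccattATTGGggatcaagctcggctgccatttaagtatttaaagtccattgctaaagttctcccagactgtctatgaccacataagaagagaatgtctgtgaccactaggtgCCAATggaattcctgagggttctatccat
Psmd14, chr2:61711444-61711693, plus strand: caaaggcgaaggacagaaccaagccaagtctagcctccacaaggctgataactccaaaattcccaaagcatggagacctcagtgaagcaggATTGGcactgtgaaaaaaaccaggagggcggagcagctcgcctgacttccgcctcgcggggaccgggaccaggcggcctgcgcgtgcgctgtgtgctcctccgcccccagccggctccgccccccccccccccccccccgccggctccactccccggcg
Psmb6, chr11:70525107-70525356, plus strand: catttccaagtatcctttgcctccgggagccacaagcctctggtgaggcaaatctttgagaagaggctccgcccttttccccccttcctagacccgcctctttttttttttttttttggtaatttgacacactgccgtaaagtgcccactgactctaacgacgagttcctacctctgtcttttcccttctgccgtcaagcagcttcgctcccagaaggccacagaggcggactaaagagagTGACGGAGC
Psma6, high in endothelial-like cells, had CCAAT at -136 and -29 from the start, Psmd14, high in neuroblast-like cells, had it at -159, and Psmb6 had TGACNNNGC at -9. The windows of Psme2 and Psmb10 held none of the 5 motifs searched. TGACNNNGC was found in 5 of 33 proteasome windows (15.2%), against 11.5% of 27025 genes, and CCAAT in 12 (36.4%), against 37.5%. The interferon-stimulated response element, searched as TTTC and TTTC with 2 free bases between, was found in 3 (9.09%, against 3.46%). The gamma-activated site TTCNNNGAA was found in 0 (against 8.13%), and the ETS motif CCGGAAGT in 5 (15.2%, against 3.23%). A match is a description of the letters and not a bound site.

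Other genes of the pathway, 34 of which passed the minimum, were counted in the same way. In neuroblast-like cells 12 of the 34 were at least 1.5-fold higher and 6 lower, where 24.9% of all genes were higher and 30.6% lower. The 12 included all 4 Psmg genes, which chaperone the alpha ring, with Psmg4 at 1.05 UMIs per 10,000, against 0.364 in the other brain-class cells (log2 ratio 1.31), and also Uba1, the ubiquitin-activating enzyme (1.09), Ubqln2, a ubiquitin shuttle (1.47), and Usp14, a deubiquitinase of the base (0.85). The 6 included Nfe2l2, the oxidative stress factor, at 0.112, against 1.09 (-2.49). In endothelial-like cells 7 were higher and 6 lower, where 16.0% and 30.3% of all genes were. Pomp, which matures the core particle, had 6.28, against 2.46 (1.32), Sem1, a small lid subunit, had 4.82, against 2.36 (1.00), and Nfe2l1, the factor that drives proteasome genes when degradation fails, had 1.48, against 0.360 (1.78). In microglia-like cells 6 were higher and 7 lower, where 16.4% and 40.0% of all genes were. Zfand5, a proteasome-binding zinc finger gene, had 5.38, against 1.63 (1.66), while Nfe2l1 had 0.292, against 0.558 (-0.75). The immediate early genes named above led the same cells, and their part in these ratios was not tested. In astrocyte-like cells 4 were higher and 10 lower, where 23.6% and 28.2% of all genes were, so that the lower genes were a share close to that of all genes. Among them were Pomp at 1.45, against 2.94 (-0.97), and Sem1 at 1.40, against 2.72 (-0.91). Mature oligodendrocyte-like cells had 4 higher and 9 lower (15.0% and 38.4% of all genes), pericyte-like cells 2 higher and 7 lower (17.0% and 30.8%), and precursor-like cells 9 higher and 7 lower (27.2% and 22.3%).

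The old and the young rows differed little, as both hold largely the same cells. In all brain-class cells the 39 members had a median log2 ratio of old over young rows of -0.02, between -0.07 (Psma7) and 0.03 (Psmd11). In the 6 classes the medians lay between -0.05 (neuroblast-like) and 0.04 (pericyte-like), and the members between -0.38 (Psme3 in pericyte-like cells) and 0.25 (Psme1 in mature oligodendrocyte-like cells). None of the 39 was 1.5-fold apart in any of the 6 classes or in all brain-class cells, where 0.257% of all genes were in all brain-class cells. In the classes that share of all genes was 0.379% (astrocyte-like), 0.575% (microglia-like), 0.869% (endothelial-like), 1.20% (mature oligodendrocyte-like), 2.15% (neuroblast-like) and 4.36% (pericyte-like). No statement on age follows from these values.

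The low-mitochondrial cells held more proteasome messenger RNA than the brain-class cells. In the old library the 40 genes summed to 112 UMIs per 10,000 in 289 low-mitochondrial cells, against 43.2 in brain-class cells. In the young library they summed to 106 in 1315 low-mitochondrial cells, against 43.9 in brain-class cells. Of the 39 members, 21 were at least 1.5-fold higher and 9 lower in the old library, where 14.4% of all genes were higher and 67.5% lower, and 24 were higher and 7 lower in the young library, where 14.2% were higher and 67.7% lower. The median log2 ratio in the young library was 0.99 for the members and -1.32 for all genes. These cells had under 1% mitochondrial UMIs, were given no name whatever markers they held, and were mostly from the young table, and the part of cell type, RNA quality or library in the difference was not tested.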

How the data were processed

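Both libraries came in 1 deposited table with a row per cell. The authors had scaled each cell to 10,000 UMIs, added 1 and taken the natural log, as the deposited values show. Per the submitters' processing notes, Cell Ranger 5.0.0 and mm10 were used. Annotation, strand setting and cell filter are not given in these sources. Undoing the log gave whole UMIs, within 0.01, for 100% of values, and these were summed. All 3893 cells were kept. Clusters were made in Python 3.11.15 with scanpy 1.11.5 by the Leiden method (igraph 0.11.9, resolution 1) from 2000 variable genes, 30 principal components and 15 neighbours, and named from fixed markers when 3 markers had a UMI in 25% of cells at 4 times the level of the other cells. Called doublets, 23 old (1.61%) and 37 young (1.5%), were kept.

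Levels have exact Poisson intervals, ratios exact conditional binomial intervals and shares Clopper-Pearson intervals, from scipy 1.17.1. Log2 ratios are on the scale of the level plus 0.1, over 8169 genes with at least 100 UMIs, and understate the change of low genes. There was no test and no p-value. These intervals are on UMIs pooled over cells and cover counting error only. They leave out differences between cells of a class, between animals, and in PCR and capture. On simulated counts of 8169 genes, 93% of 2-fold higher genes passed 1.5-fold in microglia-like cells and 80% in pericyte-like cells. Of 2-fold lower genes, 82% passed in microglia-like, 72% in pericyte-like and 69% in astrocyte-like cells. Of unchanged genes, 0.0627% in microglia-like and 12.4% in pericyte-like cells passed in either direction. The counts were Poisson draws from pooled means, without differences between cells of a class, so these shares reflect counting error alone. Members and lists were chosen with earlier results of these data known. Members named with values are the catalytic, inducible and activator genes, in each of the 6 largest named classes the 3 highest and the 3 lowest, and any at least 1.5-fold apart; the same holds for precursor-like cells by choice after their values were seen. Other genes of the pathway are examples of their counts. Psmb5 and Psma5 shared 66.9% and 62.6% of the 31-base words of their last 500 bases with other genes, so their counts are uncertain, and Psme1, Psmb7, Psmb10, Psma3 and Psmc3 overlap a gene on the other strand there and Psmd1 one on its own strand. Depth differed between classes, so shares of cells were compared after thinning to 1000 UMIs. Cells with fewer UMIs were left out of all thinned values. The alternatives are in the closing section.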

Additional observations from a re-analysis of the deposited data

How the results depend on the processing

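Over 688 alternative values, 620 kept to within the counting interval or within 1.5 times the count, 68 moved and 0 reversed. For the medians of old over young rows, the range was the SD over members in place of a counting interval. Only log2 ratios whose interval excluded 0 could be called reversed. Of the 688, 128 used the old rows, largely the same cells. A further 18 used clusters made without member genes, none of which was a variable gene. All 24 alternatives of the core over regulatory ratio, and all 116 without called doublets, kept. Ages were not replicated, as each has 1 library. Over the 1113 brain-class barcodes with the same class in both libraries, the 39 members had a median log2 ratio of old over young rows of -0.01. What follows is given for microglia-like, astrocyte-like, endothelial-like, pericyte-like, mature oligodendrocyte-like and neuroblast-like cells as log2 ratios over the other brain-class cells or as counts of members. Where a value moved, the cause was not tested, except that a stricter fold or minimum passes fewer genes by construction. As a mean over cells, the summed level was -0.35 in microglia-like, -0.35 in astrocyte-like and 0.46 in neuroblast-like cells. Thinned to 1000 UMIs it was -0.38 in microglia-like, -0.37 in astrocyte-like, 0.20 in mature oligodendrocyte-like and 0.54 in neuroblast-like cells. Without mitochondrial and ribosomal protein genes in the total it was -0.21 in astrocyte-like and 0.68 in neuroblast-like cells. Relative to the median of all genes it was -0.090 in microglia-like cells, 0.62 for endothelial-like cells, 0.28 for pericyte-like cells and 0.41 in mature oligodendrocyte-like cells. On that scale 2 members were higher and 0 lower in microglia-like cells, 14 higher among endothelial-like cells, 6 among pericyte-like cells, and 12 higher and 3 lower in mature oligodendrocyte-like cells. Psmb10, Psme1 and Psme2 were then at 0.86, 0.87 and 0.55 in microglia-like cells, and Psmb10 and Psme1 at -1.66 and -2.87 in mature oligodendrocyte-like cells, while the old rows gave Psme1 there at -2.87. At 2-fold, 0 members were lower in microglia-like cells, 0 higher and 1 lower in astrocyte-like, 4 higher among endothelial-like cells, 0 higher among pericyte-like cells, 0 higher and 3 lower in mature oligodendrocyte-like and 3 higher in neuroblast-like cells. With a minimum of 500 UMIs, 0 were higher in astrocyte-like, 1 lower in pericyte-like, and 1 higher and 3 lower in mature oligodendrocyte-like cells, and in the old rows 2 were lower in astrocyte-like cells. The shares of all genes at 2-fold or at the minimum of 500 UMIs were not computed. The counts at these settings thus cannot be set beside all genes. Thinned to 1000 UMIs, the percent of cells with a Psme1 UMI was 10.1 in microglia-like, 4.56 in astrocyte-like cells, 23.6 for endothelial-like cells, 2.94 for pericyte-like cells, 1.30 in mature oligodendrocyte-like and 12.3 in neuroblast-like cells, and for Psmb10, in that order of classes, 8.17, 3.80, 7.32, 10.3, 1.30 and 3.51. The alternative total without mitochondrial and ribosomal protein genes was added for the counts after seeing the data. Pericyte-like cells, with the fewest UMIs of the 6 classes, limit single members most.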

Other observations

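Single members differed widely in the low-mitochondrial cells. Psma7, an alpha-ring subunit, had 14.4 UMIs per 10,000 in young low-mitochondrial cells, against 2.10 in young brain-class cells, a log2 ratio of 2.71. The 7 members at least 1.5-fold lower in the young rows were Psmb4, Psmb10, Psmd3, Psmd5, Psmd9, Psmd13 and Psme4, and all 7 were also among the 9 lower in the old rows. Psmd13, a lid subunit, had 0.0748 in young low-mitochondrial cells, against 0.931 in young brain-class cells (-2.56), and Psmb10 had 0.0625, against 0.805 (-2.48). Psme2 had 2.31, against 0.779 (1.45), while Psme1 had 0.977, against 1.28 (-0.36), so the PA28 pair was unequal here as well.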
